A study of Homo sapiens with 6 samples.

Results

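The genes described here are the ligands, receptors, inhibitors, intracellular carriers and nuclear factors of the Wnt and Notch pathways. They were chosen by gene symbol alone, which gave 82 of the 26485 gene symbols in the table, 56 of the Wnt pathway and 26 of the Notch pathway. No measured value entered that choice.

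Wnt proteins are secreted lipid-bearing ligands that bind Frizzled receptors together with the co-receptors LRP5 or LRP6. Binding stops a complex of APC and axins from marking beta-catenin for destruction, and beta-catenin then enters the nucleus and acts with TCF/LEF factors on target genes. Notch is a receptor cut on contact with a Delta or Jagged ligand of a neighbouring cell. The freed intracellular part joins RBPJ and a Mastermind protein to switch on HES and HEY repressors. In the developing pancreas Notch signalling holds progenitors back from endocrine fate, and Wnt components have been tied to beta cell maturation and growth.

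RNA was sequenced from EndoC-βH1, an established human pancreatic beta cell line, in 6 libraries. Every culture received the lentiviral vector lentiCRISPRv2, which delivers Cas9 and a resistance gene, and was kept as a stable line under antibiotic selection. In the 3 libraries called Empty (genotype label WT) the vector held no guide. In the 3 called sgZHX3-3 (genotype label ZHX3 KO) it held 1 guide, which targets the first coding exon of ZHX3, a zinc-finger and homeobox repressor. The titles give biological replicates 1 to 3 in each group but not whether these are separately made lines, so the p-values may measure spread between cultures of the same line. With 1 guide, effects on ZHX3 and effects of the guide elsewhere cannot be told apart.

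Total counts ranged from 45101454 to 61051884 per library. The targeted gene did not check the labels, since its RNA rose in the libraries labelled sgZHX3-3 (ZHX3, log2 fold change 0.75, edgeR adjusted p = 1.62e-05), so directions are drawn from the labels alone. INS, the defining beta cell gene, was at 5206 to 7118 CPM (counts scaled by library size with the TMM factor). Markers of other cells were low: alpha, delta and PP cell markers summed to 77.5 to 87.8 CPM in Empty and 67.6 to 76.6 in sgZHX3-3 (1 of 6 tested lower), duct markers to 51.3 to 57.8 and 56.1 to 59.2 (0 of 3 called), acinar markers to 33.1 to 38.6 and 42.1 to 45.2 (1 of 1 higher), stromal markers to 6.05 to 6.86 and 6.42 to 8.65 (0 of 3), and endothelial and immune markers to 12.4 to 17.8 and 17.3 to 21.2 (0 of 1), with PNLIP, CDH5 and CD3E at 0 counts throughout. Libraries did not scatter evenly. Empty 1 lay at a chi-square per gene of 22.2 from Empty 2 and 21.3 from Empty 3, which lay at 3.53 from each other, and sgZHX3-3 library 3 stood apart from libraries 1 and 2 (20.3 and 12.3, against 4.43). In 14 genes of oxidative, heat and endoplasmic reticulum stress, 7 were lower in sgZHX3-3 and 0 higher; their summed level was 3388, 4318 and 4652 CPM in Empty 1, 2 and 3 and 2844, 2930 and 2754 CPM in the sgZHX3-3 libraries. Of the 8 beta cell markers 6 were higher and 0 lower, with Empty 1 at 38247 CPM in sum and Empty 2 and 3 at 30647 and 30364. The part of these differences in the values below was not tested. Values with Empty 1 as the sole control are given for each called gene of either pathway that the text names, and values without Empty 1 where they bring a call.

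The Wnt and Notch members were called at a share close to that of all tested genes. Of the 82 members, 55 had enough counts to be tested, and 6 of them were higher and 0 lower in sgZHX3-3 (edgeR quasi-likelihood test, adjusted p below 0.05 over 16199 genes). The higher ones were the Wnt ligand WNT5B, the Wnt receptors FZD7 and LRP5, the Notch ligand DLL1, the Notch-modifying enzyme LFNG and the Notch coactivator MAML3. That is 10.9% of the tested members, where 12.1% of all tested genes were called, 7.11% higher and 4.98% lower. At an unadjusted p below 0.05 in the same test there were 13 of the 55 tested members, beside 4560 of the 16199 tested genes. The Wnt genes gave 3 of 32 tested members and the Notch genes 3 of 23. The log2 fold change was within 0.1 of 0 for 21 of the 55 tested members. Its median size, without sign, was 0.141 in members and 0.127 over all tested genes, and the signed medians were 0.09 and −0.0020. The groups did not overlap in CPM for 17 of the 55, or 30.9%, against 32.0% of all tested genes.

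**Figure D1:**
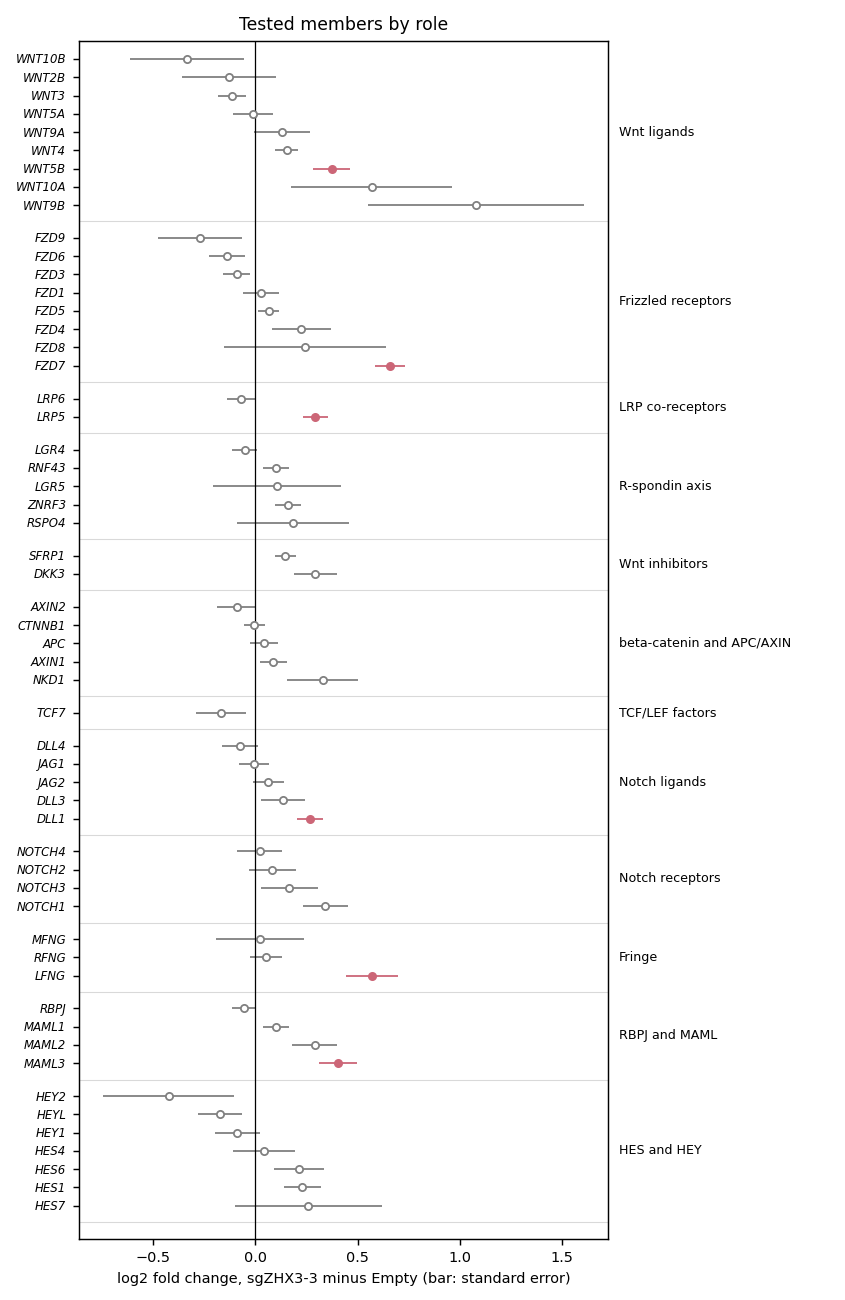
Log2 fold change (sgZHX3-3 minus Empty) of the 55 tested members, grouped by role, with standard errors as bars; filled points are the 6 members called at an adjusted p below 0.05. The called points, FZD7 at 0.66 being the farthest from 0 among them, lie to the right of 0, and the wide bars belong to members of low count such as WNT9B.

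**Figure D2:**
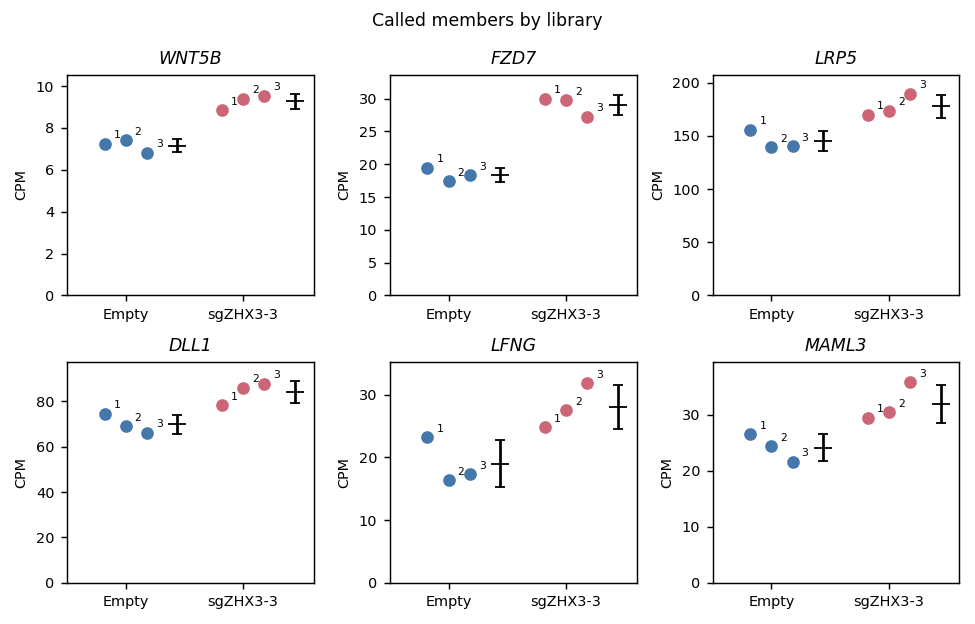
CPM of the 6 called members in each library, numbered by replicate, from an axis that starts at 0; the black mark is the group mean with its SD (n = 3). In each of the 6 panels the lowest sgZHX3-3 library lies above the highest Empty library, by little for LFNG, where Empty 1 is at 23.3 and sgZHX3-3 library 1 at 24.9.

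The bases before the start of HES1, the textbook Notch target, are shown first for comparison. Those of the called members found in the RefSeq promoter table follow. The table (GRCh38.p14) held 60 of the 82 members, with 4 of the 6 called ones. Each line gives the 250 bases before the RefSeq start, 5′ to 3′, and capitals mark matches on either strand to CTTTGA (TCF/LEF), TGGGAA (RBPJ), CACNAG (the N-box bound by HES factors) or CCAAT (NF-Y). These motifs did not overlap in the lines shown. Only the first entry of each gene was used, so any other start of a gene is not shown. The WNT5B window lies within the annotated gene (1529891 to 1647243), so it belongs to an internal start.
HES1 (chr3:194135898-194136147, plus strand): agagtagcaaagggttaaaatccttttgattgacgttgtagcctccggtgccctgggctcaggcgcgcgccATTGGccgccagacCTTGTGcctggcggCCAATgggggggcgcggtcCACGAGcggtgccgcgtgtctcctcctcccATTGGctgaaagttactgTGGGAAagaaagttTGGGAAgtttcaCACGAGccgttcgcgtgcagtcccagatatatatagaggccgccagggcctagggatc
LFNG (chr7:2512279-2512528, plus strand): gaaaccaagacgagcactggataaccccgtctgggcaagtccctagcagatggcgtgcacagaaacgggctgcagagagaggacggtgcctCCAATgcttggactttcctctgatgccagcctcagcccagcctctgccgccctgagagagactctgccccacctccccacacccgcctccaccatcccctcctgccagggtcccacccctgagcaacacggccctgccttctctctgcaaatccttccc
MAML3 (chr4:140154185-140154434, minus strand): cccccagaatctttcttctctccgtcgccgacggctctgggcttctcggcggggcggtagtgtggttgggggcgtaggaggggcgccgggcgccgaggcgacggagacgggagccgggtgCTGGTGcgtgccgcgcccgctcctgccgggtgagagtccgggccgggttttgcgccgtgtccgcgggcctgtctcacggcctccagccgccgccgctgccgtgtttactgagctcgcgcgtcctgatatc
LRP5 (chr11:68312341-68312590, plus strand): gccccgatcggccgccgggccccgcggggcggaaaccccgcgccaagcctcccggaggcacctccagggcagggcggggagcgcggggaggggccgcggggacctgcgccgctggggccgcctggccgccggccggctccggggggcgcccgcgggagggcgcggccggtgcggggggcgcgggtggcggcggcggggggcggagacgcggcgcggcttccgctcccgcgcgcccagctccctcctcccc
WNT5B (chr12:1616806-1617055, plus strand): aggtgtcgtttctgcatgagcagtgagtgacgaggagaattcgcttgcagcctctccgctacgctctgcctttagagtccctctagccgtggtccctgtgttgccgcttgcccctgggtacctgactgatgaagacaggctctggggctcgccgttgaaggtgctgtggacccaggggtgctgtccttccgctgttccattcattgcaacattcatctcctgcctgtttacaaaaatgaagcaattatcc
The HES1 window holds TGGGAA at 84 and at 70 bases before the start, on the plus strand. None of the 4 called members holds the RBPJ or the TCF/LEF motif in this window. Over all 27305 promoters in the table, 21.1% hold the RBPJ motif and 11.4% the TCF/LEF motif. The NF-Y motif stands in LFNG, 159 bases before the start, and the N-box in MAML3, read on the minus strand from 130 bases before the start; 33.0% and 32.0% of all promoters hold these motifs. The windows differ in base composition, from 54.8% G and C in WNT5B to 87.2% in LRP5, where the median of tested genes was 64.8%. Among the 40 tested members with an entry, 8 hold the RBPJ motif: APC, HES1, HES4, HEY2, HEYL, LGR4, WNT9A and WNT9B. The TCF/LEF motif stands in 1, the gene RBPJ itself. Of the 11548 tested genes with an entry, 19.3% hold the RBPJ motif and 7.97% the TCF/LEF motif. A match is a description of letters and not of binding.

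WNT4 made up most of the Wnt ligand RNA of these cells, and WNT5B was the only Wnt ligand gene called. By level per length (CPM per kb of exons), WNT4 stood at 25.7 over all libraries, followed by WNT3 at 4.81, WNT5A at 2.33 and WNT5B at 1.91. WNT4 accounted for 68.5% to 72.0% of the summed ligand level per length in each library. WNT5B, a ligand used mainly in beta-catenin-independent signalling, lies on chromosome 12 from 1529891 to 1647243, and was at 7.25, 7.40 and 6.82 CPM in Empty and 8.86, 9.40 and 9.54 CPM in sgZHX3-3. The groups did not overlap, and the log2 fold change was 0.37 with its standard error (SE) at 0.0909 (edgeR adjusted p = 0.0196). The call did not survive removal of Empty 2 (adjusted p = 0.0610), Empty 3 (0.101), sgZHX3-3 library 2 (0.0930) or library 3 (0.0574), while the value stayed between 0.34 and 0.40 with any 1 library left out and was at 0.36 (0.244) with Empty 1 as the sole control.

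WNT4 itself was at 118, 106 and 107 CPM in Empty and 122, 124 and 121 CPM in sgZHX3-3. The sgZHX3-3 libraries lay within a narrow band above all Empty libraries, at a log2 fold change of 0.15 that did not pass (adjusted p = 0.101). Without Empty 1, the highest of its group, it was at 0.21 and passed (0.0103). WNT3 was at 21.9, 22.3 and 20.8 CPM in Empty and 20.6, 19.8 and 19.6 CPM in sgZHX3-3, slightly lower in each sgZHX3-3 library, and did not pass (−0.115, adjusted p = 0.295). WNT5A, the close relative of WNT5B, overlapped between the groups (−0.01, with a 95% interval from −0.23 to 0.20). WNT9A, WNT10A, WNT10B, WNT2B and WNT9B did not pass either. WNT9B ranged from 0.0845 to 0.498 CPM, on 5 to 30 counts. The other 10 Wnt ligand genes were too low to test, with at most 20 counts in a library (WNT8B), and WNT7A had 0 counts in all libraries, which allows up to 0.0671 CPM in the shallowest one.

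**Figure D3:**
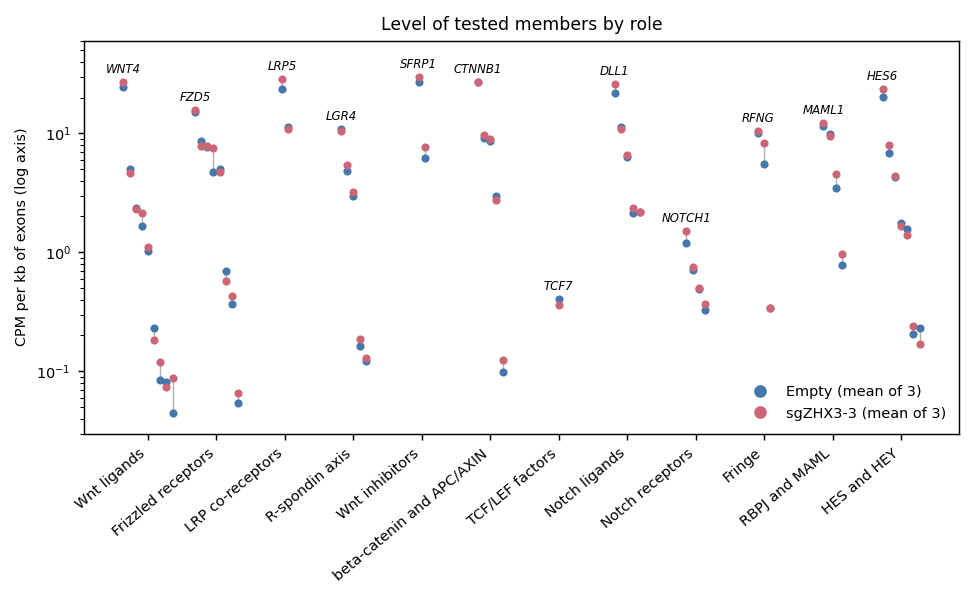
Mean level of each tested member per kb of exons, on a log axis, in Empty and sgZHX3-3 (means of 3 libraries), with the highest member of each role named. WNT4, LRP5, SFRP1, CTNNB1, DLL1 and HES6 lie above 20 CPM per kb, while the Notch receptors lie between 0.350 (NOTCH3) and 1.34 (NOTCH1) and TCF7 is at 0.384.

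FZD7 had the smallest adjusted p of all members and was the only Frizzled gene called. Frizzleds are seven-pass membrane receptors for Wnt ligands, and FZD7 is a single-exon gene on chromosome 2 (202034587 to 202038445), with no annotated exon of another gene over it. It was at 19.5, 17.4 and 18.3 CPM in Empty and 30.0, 29.8 and 27.3 CPM in sgZHX3-3. The gap between the groups was several times the spread within either, with means of 18.4 ± 1.06 (SD, n = 3) and 29.01 ± 1.51 (SD, n = 3). The log2 fold change was 0.66 (SE 0.0730, edgeR adjusted p = 0.000200), a 1.58-fold rise. It kept its call in all 17 alternative settings, between 0.57 and 0.70, and was at 0.57 (adjusted p = 0.0288) with Empty 1 as the sole control.

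Within the receptor family FZD7 took a larger share of the level per length in each sgZHX3-3 library than in any Empty library. FZD5 was the most abundant Frizzled per length, at 97.9, 102 and 103 CPM in Empty and 105, 105 and 107 CPM in sgZHX3-3 (0.06, adjusted p = 0.444). FZD6 was second by level per length, at 31.5, 36.9 and 37.5 CPM in Empty and 34.7, 33.2 and 28.3 CPM in sgZHX3-3, and overlapped (−0.14, adjusted p = 0.326). Of the summed Frizzled level per length FZD7 held 12.2%, 10.6% and 11.1% in Empty and 17.3%, 17.2% and 15.9% in sgZHX3-3. FZD5 held between 34.9% and 35.9% in every library. The summed level was 42.3 ± 0.844 CPM per kb (SD, n = 3) in Empty and 44.7 ± 0.124 CPM per kb (SD, n = 3) in sgZHX3-3, without overlap. FZD1, FZD3, FZD4, FZD8 and FZD9 did not pass, with log2 fold changes from −0.27 (FZD9) to 0.24 (FZD8). FZD2 and FZD10 were not tested, with at most 2 and 5 counts in a library.

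**Figure D4:**
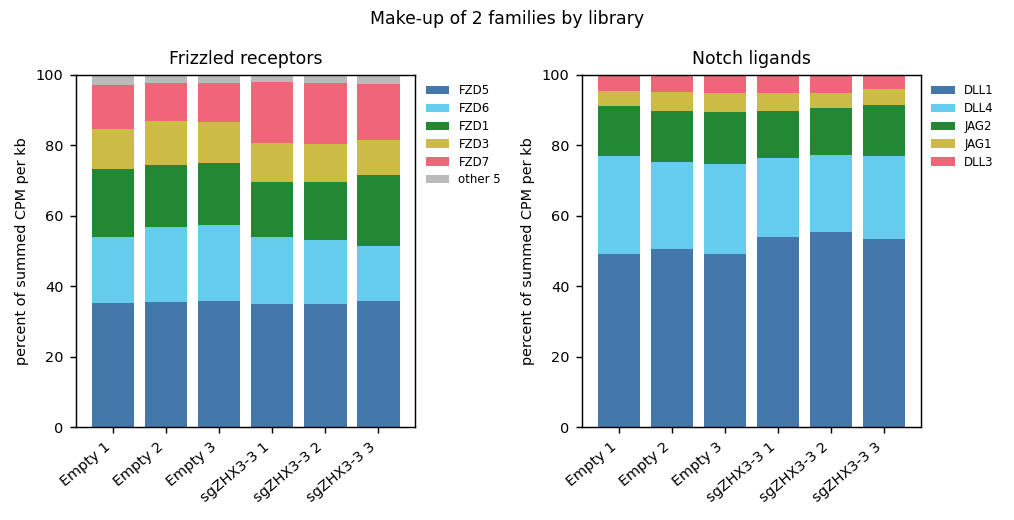
Share of each gene in the summed level per kb of the Frizzled receptors (left) and the Notch ligands (right), in percent, for each of the 6 libraries. FZD7 takes 10.6% to 12.2% in Empty and 15.9% to 17.3% in sgZHX3-3, and DLL1 takes 49.0% to 50.4% and 53.5% to 55.3%.

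Of the LRP pair, LRP5 rose and LRP6 did not pass. LRP5 was the more abundant per length, at 26.2 CPM per kb against 11.1 for LRP6. LRP5 was at 156, 139 and 140 CPM in Empty and 170, 174 and 190 CPM in sgZHX3-3, with Empty 1 and sgZHX3-3 library 3 the highest of their groups and no overlap. Its log2 fold change was 0.29 (SE 0.0619, edgeR adjusted p = 0.00995). With the exonic length and GC offset LRP5 was at 0.20 and still called (edgeR adjusted p = 0.0064). LRP6 was at 104, 125 and 122.9 CPM in Empty and 113, 114 and 108 CPM in sgZHX3-3, so the groups overlapped (−0.07, with a 95% interval from −0.22 to 0.08). It was at −0.15 without Empty 1 and at 0.10 with Empty 1 as the sole control. The ratio of LRP5 to LRP6 per length was 2.51, 1.87 and 1.92 in Empty and 2.52, 2.55 and 2.95 in sgZHX3-3, where Empty 1 and sgZHX3-3 library 1 nearly met. LRP5 was no longer called on removal of Empty 2 (0.27, adjusted p = 0.0613) or Empty 3 (0.27, 0.0654), and with Empty 1 as the sole control it was at 0.19 (0.322).

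No gene of the R-spondin axis passed. R-spondins strengthen Wnt signals by binding LGR receptors and drawing off the ubiquitin ligases RNF43 and ZNRF3, which otherwise remove Frizzleds from the membrane. LGR4 was the main receptor, at 74.0, 66.8 and 66.5 CPM in Empty and 64.2, 65.5 and 70.1 CPM in sgZHX3-3, overlapping (−0.05, adjusted p = 0.627). ZNRF3 was at 32.5, 34.4 and 34.6 CPM in Empty and 39.2, 36.1 and 38.2 CPM in sgZHX3-3. Its groups did not overlap but the difference of 0.16 did not pass (adjusted p = 0.115). RNF43, at 0.10, is uncertain because other annotated genes cover 73.9% of its exonic bases. LGR5 and RSPO4 were below 1 CPM in every library, RSPO3 had 0 counts, and RSPO1, RSPO2 and LGR6 had at most 5 counts in a library.

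The secreted inhibitor SFRP1 was among the most abundant members, and neither it nor DKK3 passed. SFRP proteins bind Wnts outside the cell. SFRP1 was at 131, 124 and 128 CPM in Empty and 143, 142 and 139 CPM in sgZHX3-3. Every sgZHX3-3 library lay above every Empty library, by 0.15 on the log2 scale (SE 0.0508, edgeR adjusted p = 0.0799). DKK3, a secreted member of the Dickkopf family, was at 37.1, 29.1 and 28.1 CPM in Empty and 36.8, 35.9 and 42.7 CPM in sgZHX3-3, with Empty 1 inside the range of the other group (0.29, adjusted p = 0.0836). DKK3 passed with DESeq2 (0.0360) and without Empty 1 (0.43, edgeR adjusted p = 0.00317), and with Empty 1 as the sole control it was at 0.06. SFRP1 passed without Empty 1 (0.17, adjusted p = 0.0272), with the gene span offset (0.0428) and with the length and GC offset (0.0286). The LRP-binding inhibitors DKK1, DKK2 and DKK4 had at most 3, 1 and 8 counts in a library, SFRP4 and SFRP5 at most 4 and 1, and SFRP2 had 0.

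Inside the cell, RNA for beta-catenin and its destruction complex differed little between the groups. Protein levels, at which beta-catenin is controlled, were not measured here. CTNNB1, which encodes beta-catenin, was the member with the highest count, at 338, 316 and 320 CPM in Empty and 330, 325 and 315 CPM in sgZHX3-3. The ranges nearly coincided, and the 95% interval of the log2 difference ran from −0.11 to 0.10. AXIN1, the main scaffold, was at 73.5, 67.8 and 64.1 CPM in Empty and 68.7, 72.2 and 77.3 CPM in sgZHX3-3 and overlapped (0.09, adjusted p = 0.420). APC (0.04, adjusted p = 0.741) did not pass. AXIN2 and NKD1, feedback inhibitors that are also widely used as target genes of beta-catenin, gave −0.09 (adjusted p = 0.581) and 0.33 (0.237). AXIN2 was at 16.6, 14.7 and 14.9 CPM in Empty and 12.7, 14.2 and 16.3 CPM in sgZHX3-3, and its groups overlapped. Its counts are uncertain, because another annotated gene on the same strand covers 25.2% of the AXIN2 exonic bases. Of the TCF/LEF factors only TCF7 had enough counts, at 4.08, 3.80 and 4.40 CPM in Empty and 3.40, 3.71 and 3.80 CPM in sgZHX3-3, with the groups almost touching (−0.17, adjusted p = 0.408). LEF1 had at most 2 counts in a library and TCF7L1 at most 7. TCF7L2, the remaining family member and outside the symbols chosen, was at 7.78, 8.47 and 8.004 CPM in Empty and 7.83, 7.18 and 6.92 CPM in sgZHX3-3 (−0.15, adjusted p = 0.339).

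Among the Notch ligands DLL1 was both the most abundant per length and the only one called. DLL1, a Delta-type ligand on chromosome 6 (170282206 to 170306565), was at 74.4, 69.0 and 66.1 CPM in Empty and 78.4, 85.9 and 87.8 CPM in sgZHX3-3. The groups did not overlap, and the log2 fold change was 0.27 (SE 0.0639, edgeR adjusted p = 0.0178). DLL4, the next ligand by level, was at 62.4, 50.1 and 50.3 CPM in Empty and 47.8, 50.4 and 56.3 CPM in sgZHX3-3, with Empty 2 and 3 inside the sgZHX3-3 range and Empty 1 above it (−0.07, adjusted p = 0.633). The ratio of DLL1 to DLL4 per length was 1.91 ± 0.138 (SD, n = 3) in Empty and 2.41 ± 0.107 (SD, n = 3) in sgZHX3-3, without overlap. JAG1, JAG2 and DLL3 did not pass, with values from −0.0067 (JAG1) to 0.13 (DLL3). DLL1 was no longer called on removal of Empty 2 (0.26, adjusted p = 0.0807), Empty 3 (0.23, 0.110), sgZHX3-3 library 2 (0.25, 0.0977) or library 3 (0.23, 0.0557), and was at 0.18 (0.396) with Empty 1 as the sole control.

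The Notch receptors were low next to their ligands, and none passed. NOTCH1 was the highest per length, at 1.34 CPM per kb, where DLL1 was at 23.9. NOTCH1 was at 12.8, 13.8 and 10.3 CPM in Empty and 14.0, 15.6 and 17.2 CPM in sgZHX3-3. The groups only just stayed apart, between Empty 2 and sgZHX3-3 library 1, and the log2 fold change of 0.34 (SE 0.111) had the adjusted p nearest to the threshold among members that did not pass (edgeR adjusted p = 0.0623). It passed with DESeq2 (0.0284), with no expression filter (0.0428), and without Empty 1 (0.0499) or sgZHX3-3 library 1 (0.0491). It was at 0.19 (0.218) with the exonic length and GC offset and at 0.23 (0.257) without Empty 3. NOTCH2 was at 10.2, 14.4 and 11.1 CPM in Empty and 12.8, 12.7 and 12.6 CPM in sgZHX3-3, within the Empty range (0.08, adjusted p = 0.680). NOTCH2 has near-identical partial copies, the NOTCH2NL genes, so its counts are uncertain. NOTCH3 (0.17) and NOTCH4 (0.02) did not pass.

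Of the Fringe enzymes, glycosyltransferases that add sugars to Notch and alter which ligands it answers to, LFNG rose. LFNG lies on chromosome 7 (2512529 to 2529177) and was at 23.3, 16.4 and 17.3 CPM in Empty and 24.9, 27.6 and 31.8 CPM in sgZHX3-3. Empty 1 lay closer to sgZHX3-3 library 1 than to Empty 2 or 3. The log2 fold change was 0.57 (SE 0.129, edgeR adjusted p = 0.0167), the second in size among called members. RFNG, the most abundant Fringe per length, was at 43.1, 36.7 and 36.6 CPM in Empty and 37.2, 40.8 and 42.4 CPM in sgZHX3-3 and overlapped (0.05, adjusted p = 0.721). A gene on the opposite strand covers 21.6% of the RFNG exonic bases, so RFNG counts and the Fringe shares are uncertain. LFNG held 34.7% ± 2.21 (SD, n = 3) of the summed Fringe level per length in Empty and 43.3% ± 1.49 (SD, n = 3) in sgZHX3-3. The size of the LFNG change depended on Empty 1: it was 0.74 (adjusted p = 0.000290) without it and 0.28 (0.382) with Empty 1 as the sole control. Nor did the call survive removal of Empty 2 (0.47, adjusted p = 0.0631), Empty 3 (0.51, 0.0811), sgZHX3-3 library 2 (0.58, 0.0586) or library 3 (0.47, 0.0710).

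In the Notch transcription complex MAML3 rose, while RBPJ and the more abundant MAML1 did not pass. Mastermind proteins bridge the cut Notch receptor and RBPJ to histone acetyltransferases. MAML3 was at 26.5, 24.3 and 21.6 CPM in Empty and 29.4, 30.4 and 35.8 CPM in sgZHX3-3, without overlap. Its log2 fold change was 0.40 (SE 0.0912, edgeR adjusted p = 0.0139). MAML3 spans 437 kb of chromosome 4 (139716753 to 140154184), and once each library's trend with gene span had been removed it was at 0.24 and did not pass (0.121). It also lost its call on removal of Empty 2 (0.41, adjusted p = 0.0553), Empty 3 (0.33, 0.0826) or sgZHX3-3 library 3 (0.31, 0.0504), and was at 0.27 (0.348) with Empty 1 as the sole control. MAML1 was at 67.2, 71.9 and 64.9 CPM in Empty and 67.6, 75.8 and 75.0 CPM in sgZHX3-3 and overlapped (0.10, adjusted p = 0.332). RBPJ, the DNA-binding subunit, was at 90.2, 93.7 and 89.0 CPM in Empty and 92.8, 87.7 and 82.2 CPM in sgZHX3-3 (−0.06, adjusted p = 0.578). MAML2 was at 5.57 ± 0.490 CPM (SD, n = 3) and 6.82 ± 0.528 CPM (SD, n = 3), without overlap, and did not pass (0.29, adjusted p = 0.105).

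None of the HES and HEY repressors, a family that includes direct targets of Notch, passed. HES6 was the highest per length and HES1 the second. HES1, whose promoter is printed above, was at 14.8, 13.7 and 13.5 CPM in Empty and 14.9, 15.9 and 18.3 CPM in sgZHX3-3. Empty 1 nearly met sgZHX3-3 library 1, and the log2 fold change of 0.23 did not pass (SE 0.0889, edgeR adjusted p = 0.112). HES6, which antagonises HES1 and marks endocrine and neural differentiation, was at 49.4, 36.3 and 37.9 CPM in Empty and 42.5, 45.6 and 54.8 CPM in sgZHX3-3, with Empty 1 above sgZHX3-3 libraries 1 and 2. It was at 0.21 (adjusted p = 0.295), passed without Empty 1 (0.37, adjusted p = 0.0157), and turned to −0.05 with Empty 1 as the sole control. HEY1 (−0.09), HEY2 (−0.42, on 16 to 42 counts) and HEYL (−0.17) lay below 0 and HES4 (0.04) and HES7 (0.26) above it, with adjusted p from 0.323 to 0.892 in these 5. HES2, HES3 and HES5 had at most 7, 12 and 13 counts in a library.

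**Figure D5:**
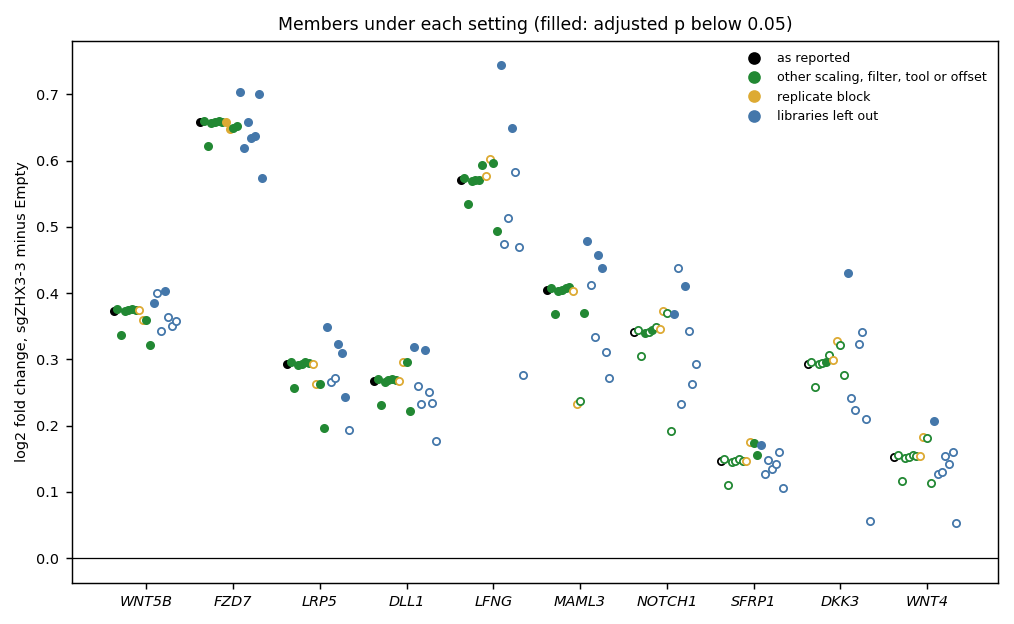
Log2 fold change of the 6 called members and of the 4 members nearest to the threshold among the rest, as reported and under 17 other settings; filled points have an adjusted p below 0.05. FZD7 is filled throughout, between 0.57 and 0.70, LFNG ranges from 0.28 to 0.74, and the lowest blue point of most genes is the setting with Empty 1 as the sole control.

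The count of called members moved with the libraries used. Removal of Empty 1 gave 11 higher members and 0 lower, removal of Empty 2 or of Empty 3 gave 1 and 0, and the counts were 3 and 0 without sgZHX3-3 library 2, 2 and 0 without library 3, 7 and 0 without library 1 and 1 and 0 with Empty 1 as the sole control, FZD7 being the called member wherever the count was 1. The share of all tested genes called moved alongside, from 12.1% to 20.1% without Empty 1, 4.83% without Empty 2, 4.01% without Empty 3, 1.5% without both, 10.7% without sgZHX3-3 library 1, 4.31% without library 2 and 7.65% without library 3. Leaving out libraries also leaves fewer samples to test, and several calls were lost at a fold change close to the reported one.

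Other genes of both pathways were listed by function. Of 116 tested, 19 were higher and 2 lower in sgZHX3-3 (18.1% called, beside 12.1% of all tested genes, with a median log2 fold change of 0.04). Among the 10 tested genes for Wnt secretion and extracellular control, WLS, the carrier that brings Wnt proteins to the cell surface, was the 1 that rose, from 201, 172 and 172 CPM in Empty to 218, 231 and 226 CPM in sgZHX3-3 (0.31, edgeR adjusted p = 0.00847; list median 0.04). Of 32 genes of the cytoplasmic and nuclear Wnt machinery (median 0.03) 3 rose and 0 fell: DACT1, an adaptor of Dishevelled (0.45, adjusted p = 0.0101), and the Groucho-type corepressors TLE4 (0.28, 0.0128) and TLE2 (0.33, 0.0151). WLS and TLE2 were not called without Empty 2, Empty 3 or sgZHX3-3 library 2, TLE2 also not without library 3, TLE4 not without Empty 3 or library 2, and DACT1 not without library 2. With Empty 1 as the sole control WLS was at 0.17 (adjusted p = 0.315), TLE4 at 0.29 (0.197) and TLE2 at 0.22 (0.393), and DACT1 was called (0.65, 0.0347).

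Beta-catenin-independent and planar polarity genes gave 4 higher and 0 lower of 15 tested, with a median of 0.14. That is 26.7% called, beside 12.1% of all tested genes. CELSR2, a polarity cadherin, was at 84.3, 90.1 and 86.8 CPM in Empty and 108, 114 and 118 CPM in sgZHX3-3, well apart (0.38, SE 0.0557, edgeR adjusted p = 0.00113). ROR2, a receptor tyrosine kinase that binds WNT5-type ligands, was at 72.7, 58.8 and 57.1 CPM in Empty and 82.2, 85.1 and 92.4 CPM in sgZHX3-3 (0.46, adjusted p = 0.00474). CELSR1 (0.49, adjusted p = 0.0198) and PTK7 (0.25, 0.0435) were also higher. CELSR2 kept its call in all 17 settings, and was at 0.23 (adjusted p = 0.00246) with the exonic length and GC offset. CELSR1 was not called without Empty 2 (0.0889), sgZHX3-3 library 1 (0.0526) or library 2 (0.0880) or with the same offset (0.33, 0.0919). PTK7 lost its call in 10 of 17 settings, library totals alone among them (0.0667). With Empty 1 as the sole control CELSR2 was at 0.43 (0.0371), ROR2 at 0.25 (0.218), CELSR1 at 0.57 (0.145) and PTK7 at 0.11 (0.639).

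Of 12 tested genes listed here as linked to beta-catenin targets (median 0.25), 3 rose and 0 fell. That is 25% called, beside 12.1% of all tested genes. The higher ones were the kinase TNIK (0.33, edgeR adjusted p = 0.00478), the ephrin receptor EPHB2 (0.54, 0.00614) and the adhesion molecule NRCAM (0.25, 0.0125). TNIK and NRCAM lost their calls once the trend with gene span had been removed (0.17, adjusted p = 0.0600, and 0.13, 0.163), and NRCAM was not called without Empty 2, Empty 3 or sgZHX3-3 library 2. EPHB2 was at 16.9, 14.9 and 15.5 CPM in Empty and 19.2, 23.0 and 26.6 CPM in sgZHX3-3, without overlap. With Empty 1 as the sole control EPHB2 was at 0.44 (0.235), TNIK at 0.38 (0.0728) and NRCAM at 0.15 (0.334).

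On the Notch side, 5 of 26 tested genes for receptor processing and ligand endocytosis rose and 0 fell, with a median of −0.0043. The share called was 19.2%, beside 12.1% of all tested genes. DTX1, a Deltex ubiquitin ligase that binds Notch and is itself a Notch-linked target, was at 18.8, 18.0 and 17.2 CPM in Empty and 22.3, 25.2 and 26.6 CPM in sgZHX3-3 (0.46, SE 0.0796, edgeR adjusted p = 0.00307), and lost its call only with Empty 1 as the sole control (0.40, 0.151). FURIN, the protease that matures Notch, was at 0.38 (adjusted p = 0.0243), and the ligand-endocytosis ligases NEURL1 and NEURL1B at 0.25 (0.0288) and 0.21 (0.0315); these 3 were not called on removal of Empty 2, Empty 3, sgZHX3-3 library 2 or library 3, nor NEURL1B without library 1. With Empty 1 as the sole control FURIN was at 0.19 (0.457), NEURL1 at 0.11 (0.576) and NEURL1B at 0.13 (0.475). DTX4 rose on very few counts, 2 to 5 in Empty and 12 to 16 in sgZHX3-3, and was not called without Empty 2, Empty 3 or sgZHX3-3 library 2, with DESeq2 (0.0514) or with Empty 1 as the sole control (0.205). DTX1 was also the 1 gene called among 7 tested Notch-linked targets outside the symbols chosen (median 0.0035).

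Nuclear cofactors and non-canonical ligands of Notch moved in both directions, with 3 of 18 tested higher and 2 lower and a median of 0.08. Of these 18, 27.8% were called, beside 12.1% of all tested genes. Among the higher ones, DLK1, an imprinted Delta-like protein, rose by 0.39 (edgeR adjusted p = 0.00293) and the contactin CNTN1 by 0.24 (0.0249), the latter not called with the trend of gene span removed (0.09, 0.364) or without Empty 2, Empty 3 or sgZHX3-3 library 1 or 2. CCNC, the cyclin that helps mark active Notch for turnover, fell by 0.25 (adjusted p = 0.00814), from 144, 144 and 143 CPM in Empty to 121, 125 and 115 CPM in sgZHX3-3. SNW1, a coactivator of RBPJ and a splicing protein, fell by 0.23 (adjusted p = 0.0150), no longer called on removal of Empty 2 (0.0618), Empty 3 (0.102) or sgZHX3-3 library 2 (0.0631). With Empty 1 as the sole control DLK1 was at 0.33 (0.148), CNTN1 at 0.11 (0.507), CCNC at −0.26 (0.139) and SNW1 at −0.20 (0.268).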

How the data were processed

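Per the labels' protocols, the library kit (NEBNext Ultra Directional) keeps strand. The authors deposited whole-number counts for each gene symbol, without normalisation, in 1 column a library. Alignment used STAR to hg38 and counting used featureCounts, per the submitters' processing notes; versions, annotation and strand setting are unknown here, so genes that overlap on opposite strands are uncertain. Each column was matched to its sample from the group and letter in its name.

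Genes were kept by filterByExpr (minimum count 10, total 15), which left 16199. Libraries were scaled by TMM (factors 0.984 to 1.02; common coefficient of variation 6.91%) and tested with edgeR's robust quasi-likelihood fit, group as the only term, with Benjamini-Hochberg adjustment over all tested genes, called below 0.05. Standard errors come from the fold change and its F statistic, and 95% intervals from these with the fit's degrees of freedom. CPM uses TMM library sizes, and levels per kb use merged exons of GENCODE release 29 (GRCh38), which held 90.3% of the symbols. Promoter sequences are from RefSeq. The members, lists, tests and alternatives were chosen with earlier results of these data known. The text may name every member, up to 5 called genes of each further list by adjusted p, TCF7L2 and ZHX3; called members and the 2 highest per length in each role are given in every library. WNT9B and other low members are described by counts. The limit given for a count of 0 covers counting error only.

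The alternatives were DESeq2, limma-voom, RLE factors, plain library totals, leaving the filter off, keeping genes at 1 CPM or more in 3 libraries, a block for the replicate number with and without an offset for gene span, that offset alone, an offset for exonic length and GC content, each library left out in turn, Empty 2 and 3 both left out, and an adjusted p below 0.01. On simulated counts for this comparison (200 changed genes among 16095) the test found 48.4% of the 1.25-fold changes, 90.0% at 1.5-fold and 95.6% at 2-fold, with 7 false calls among 165. The changed genes were drawn from those of higher mean count. The simulated libraries varied independently, without the uneven scatter of the real ones. These rates therefore cannot be carried over to low-count members or to the calls reported here. Python 3.11.15 and matplotlib 3.10.9 were used beside DESeq2 1.42.0, limma 3.58.1 and edgeR 4.0.16 under R 4.3.3. The edit made by the guide was not analysed here. 1 gene of a further list is not reported here.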

Additional observations from a re-analysis of the deposited data

How the results depend on the processing

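The 6 called members kept their direction in every alternative, and no named gene that was called reversed. Scaling, filter, tool and offset alternatives left 6 to 8 members higher and 0 lower; MAML3 was the 1 call lost, under the gene span offset. With 1 library left out, 1 to 11 members were higher and 0 lower, 474 to 1792 of all genes were higher and 184 to 1499 lower, and 7 to 27 of the other pathway genes were higher and 1 to 6 lower. With Empty 2 and 3 both left out, the counts were 1 member higher, 209 and 40 over all genes, and 6 and 1 among other pathway genes; Empty 1, then alone, is taken to have the spread of the sgZHX3-3 group, and the cause was not tested. At an adjusted p below 0.01 they were 2 members higher, 467 and 194 over all genes, and 8 and 1. With library totals only, 1272 genes were lower over all, 41.5% of calls being higher against 58.8%, and 5 other pathway genes were lower; that number was also 5 with no filter and with the length and GC offset, and 4 with DESeq2.

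Libraries of the same replicate number did not stand out as pairs. Their deviations from the group means correlated at −0.138, 0.0685 and −0.142, and not every library correlated best with its own number. Deviations within a group of 3 depend on one another, so whether same-numbered cultures were prepared together was not tested. With the number as a block, 1 member was higher, 516 genes were higher and 239 lower over all, and 12 and 1 of the other pathway genes; with the gene span offset as well, these were 1, 352 and 171, and 4 and 0. The 27 untested members had too few counts for the filter, and 3 of them had no count.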

Other observations

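Among tested members 23 of 55 (41.8%) had their highest Empty value in Empty 1 and their highest sgZHX3-3 value in library 3, against 22.3% of all tested genes. They included DLL1, DLL4, LFNG, HES1, HES6, LRP5, MAML3 and FZD1. The opposite arrangement, with both libraries lowest in their groups, held for 8 members (14.5%), among them LRP6, APC, FZD3, FZD6, NOTCH2 and HEY1, against 23.8% of all tested genes. The deviations of these libraries from their group means correlated at 0.233 over all tested genes. FZD7, WNT5B, WNT4 and SFRP1 were in neither arrangement. These are descriptions of 6 libraries, with no test.

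Members that were not tested still gave some reads. Of the 27, 13 had between 1 and 10 counts over all libraries together and 11 had more, with WNT8B at 60, HES5 at 35, HES3 at 33 and DKK4 at 30. HES5 had 6, 3 and 3 counts in Empty and 0, 10 and 13 in sgZHX3-3, and FZD10 had 1, 1 and 2 in Empty and 4, 4 and 5 in sgZHX3-3. Others leaned the other way or neither way. HES3 had 12, 5 and 7 counts in Empty and 0, 4 and 5 in sgZHX3-3. WNT8B had 6, 11 and 20 in Empty and 7, 11 and 5 in sgZHX3-3. DKK4 had 0, 8 and 7 in Empty and 3, 7 and 5 in sgZHX3-3.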
